A study of Homo sapiens with 9 samples.

Results

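The 41 nuclear genes for the protein subunits of respiratory complexes II to V, with cytochrome c, were followed in A2780 cells treated with Pt-ttpy, cisplatin or DMSO. They were chosen by symbol as the standard subunits in general use: 4 of complex II, 9 of complex III, 11 of complex IV, 16 of complex V, and CYCS. Each symbol matched 1 Ensembl gene, and all 41 were found among the 24542 genes and loci of the count table. All 41 also had enough counts to be among the 15558 genes tested. They are well expressed genes, with mean levels between 7.29 CPM (ATP5ME) and 1301 CPM (ATP5F1B), and 24 of them are among the 3112 tested genes with the highest mean levels. CPM here means counts relative to the size of the library after TMM scaling, a factor per library that aligns the bulk of the genes.

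The respiratory chain passes electrons from nutrients to oxygen across the inner mitochondrial membrane. Complex II, succinate dehydrogenase, feeds electrons from the citrate cycle into ubiquinone, complex III passes them on to cytochrome c, and complex IV hands them to oxygen. Complexes III and IV pump protons, and complex V, ATP synthase, lets the protons flow back and makes ATP. Complex II is built from nuclear genes alone, whereas complexes III, IV and V each also hold subunits encoded in mitochondrial DNA.

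A2780 is a line from a human ovarian carcinoma, of wild-type genotype per the labels. Pt-ttpy, a platinum complex that binds G-quadruplexes (folds of guanine-rich DNA or RNA), was given at 5.5 µM, cisplatin, a platinum drug that crosslinks DNA, at 0.6 µM, and the controls had 0.5% DMSO, all for 96 h. The labels put both drug doses at the IC80, and the study set out to find the genes that Pt-ttpy acts on. Each group had 3 libraries, numbered as biological replicates, and total counts ran from 31.3 to 40.8 M per library. Nothing in the labels says that the replicates were separate cultures, so the p-values may measure technical spread only.

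The libraries had limits that bear on what follows. In cisplatin 2 and DMSO 2, GC-rich transcripts had relatively more counts than in the mean of all libraries (Spearman rho with transcript GC 0.43 and 0.53, across 13278 genes of a library, which are not independent), whereas rho lay between -0.36 and -0.17 in the other 7 libraries. Leading counts are therefore also given without these 2 libraries. Of 11 ovarian and epithelial markers, none passed 1.90 CPM in any library and EMX2 was at 0. Among them KRT8, with 51, 75 and 34 counts in cisplatin libraries against 6, 0 and 0 in DMSO libraries (adjusted p = 0.00786), and EPCAM, with 35, 48 and 6 against 4, 5 and 0 (adjusted p = 0.0338), were called higher with cisplatin, and neither was with Pt-ttpy (adjusted p = 0.0587 for KRT8 and 0.375 for EPCAM). Of 3 mesenchymal markers VIM lay between 4806 and 9581 CPM, whereas FN1 lay between 0.77 and 2.46 CPM and CDH2 reached 0.49 CPM at most. The labelled ovarian origin was therefore not visible in these markers. The summed level of 5 fibroblast markers was 1597 to 1683 CPM in Pt-ttpy libraries, 1500 to 1920 CPM in cisplatin libraries and 828 to 967 CPM in DMSO libraries, and 4 of the 5 (LUM, DCN, COL3A1 and PDGFRB) rose with each drug. Of 5 leukocyte markers CD68 alone passed 1 CPM in any library (2.72 to 5.50 CPM), and the 3 endothelial and 3 erythroid markers stayed under 0.2 CPM. These marker levels are CPM without TMM scaling. The part of the fibroblast markers in the results below was not tested. In bulk RNA, fewer cells of a type and less RNA per cell cannot be told apart.

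Transcripts of the respiratory subunits made up a smaller share of all counts after both drugs. The 41 genes held 0.644%, 0.671% and 0.655% of the counts in Pt-ttpy 1, 2 and 3, and 0.643%, 0.687% and 0.648% in cisplatin 1, 2 and 3. In DMSO 1, 2 and 3 they held 0.732%, 0.776% and 0.723%. All 6 treated libraries lay below all 3 DMSO libraries. Most single changes were smaller than 0.5 on the log2 scale, and SDHB, the iron-sulfur subunit of complex II, was lowest in relation to DMSO with both drugs.

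Summed per complex as TPM, which divides each gene by its exon length and scales each library to the same total, the members averaged 394 ± 34.6 TPM for complex II with Pt-ttpy, 415 ± 37.8 with cisplatin and 491 ± 4.53 with DMSO (SD, n = 3 each). Complex III members summed to 1995 ± 114 TPM with Pt-ttpy, 2017 ± 241 with cisplatin and 2326 ± 75.7 with DMSO. Complex IV members summed to 2986 ± 180 TPM with Pt-ttpy, 3043 ± 350 with cisplatin and 3486 ± 80.5 with DMSO. The sums with Pt-ttpy thus lay 14.2% below DMSO for complex III and 14.3% below for complex IV, and the complex II sum lay 19.8% below. Complex V members summed to 4620 ± 352 TPM with Pt-ttpy, 4590 ± 418 with cisplatin and 5270 ± 196 with DMSO. In all 4 complexes every Pt-ttpy library was below every DMSO library. With cisplatin this held for complexes II and V, while cisplatin 2 reached into the DMSO range for complexes III and IV. That overlap was seen in TPM only. As sums of TMM-scaled CPM, cisplatin and DMSO libraries did not overlap for complex III (1135 to 1205 against 1336 to 1529) or complex IV (943 to 1044 against 1166 to 1292). Cytochrome c overlapped between all groups, at 223 ± 9.5 TPM with Pt-ttpy, 188 ± 38.2 with cisplatin and 264 ± 55.5 with DMSO. These sums were not tested.

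**Figure D1:**
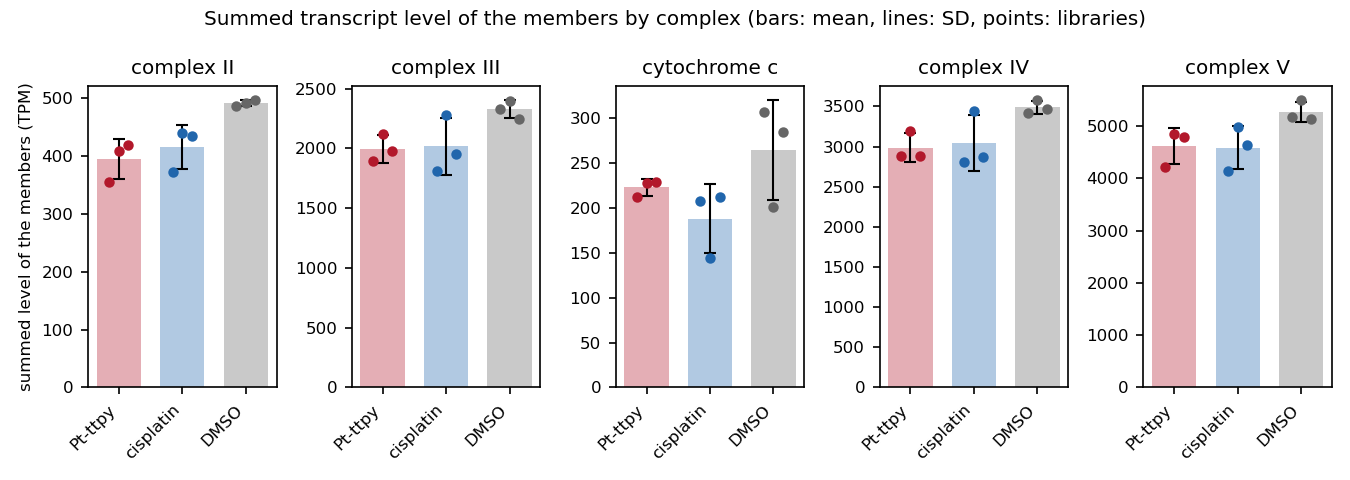
Summed transcript level (TPM) of the members of each complex, with bars for group means, lines for SD and points for the 3 libraries of each group. For complexes II to V all Pt-ttpy points lie below all DMSO points, and for cytochrome c the groups overlap.

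The comparison of Pt-ttpy with DMSO found 7 of the 41 genes lower and 0 higher by edgeR's quasi-likelihood test (Benjamini-Hochberg adjusted p under 0.05 over all genes tested). Over all genes, 12% were called, 6.45% lower and 5.59% higher, so the members' share of lower calls, 17.1%, was above that background. It was closer to the 13.2% of lower calls among the 3112 genes with the highest levels, where most members lie. The genes in question were SDHB, UQCRFS1 and CYC1, which carry electrons in complexes II and III, the complex IV subunits COX4I1, COX6A1 and COX6B1, and ATP5MC3, one of the genes for the rotating c ring of ATP synthase. The log2 change was below 0 in 36 of 41 members, with a median of -0.21, against a median of 0.03 over all genes and -0.10 over those 3112 genes. By unadjusted p under 0.05, 15 members were lower and 1 higher (ATP5IF1), and 4637 of all 15558 genes had such a p in either direction. By DESeq2 or limma-voom 0 members were called higher. The count of calls differed with the library left out. Without Pt-ttpy 1 or Pt-ttpy 2 none was called (0.427% and 0.264% of all genes lower), and without Pt-ttpy 3 only SDHB was (0.545%). Without DMSO 3 SDHB, UQCRFS1, CYC1 and ATP5MC3 were called (4.12%). The member median stayed between -0.25 and -0.18 whichever library was left out. Without DMSO 2 and cisplatin 2, 17 members were lower and 2 higher, ATP5MC2 and ATP5IF1, while 17.4% of all genes were lower and 15.8% higher in that fit.

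The comparison of cisplatin with DMSO found 12 members lower and 1 higher. The background here was 20.5% of genes called, 9.78% lower and 10.7% higher, and 20.9% of the 3112 genes with the highest levels were lower. The members' share of lower calls was 29.3%. The 7 genes called with Pt-ttpy were all called lower with cisplatin too, which shares its controls with that comparison. Called with cisplatin and not with Pt-ttpy were UQCRQ, COX5A, ATP5F1B, ATP5PF and ATP5MF, all lower, and ATP5IF1, the inhibitor of ATP synthase, which was higher. The median log2 change was -0.26, against 0.01 over all genes and -0.16 over the 3112 genes with the highest levels, and 35 of 41 members were below 0. Without DMSO 2 and cisplatin 2, 19 members were lower and ATP5IF1 was higher, while 16.4% of all genes were lower and 13.9% higher in that fit. With 1 library left out the count of lower members ran from 6 (without cisplatin 3, 6.89% of all genes lower) to 12 (without DMSO 2, 8.8%). It was 7 without DMSO 3 (6.18%) and 8 without cisplatin 2 (5.81%), Pt-ttpy 1 (6.68%) or Pt-ttpy 2 (6.14%).

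**Figure D2:**
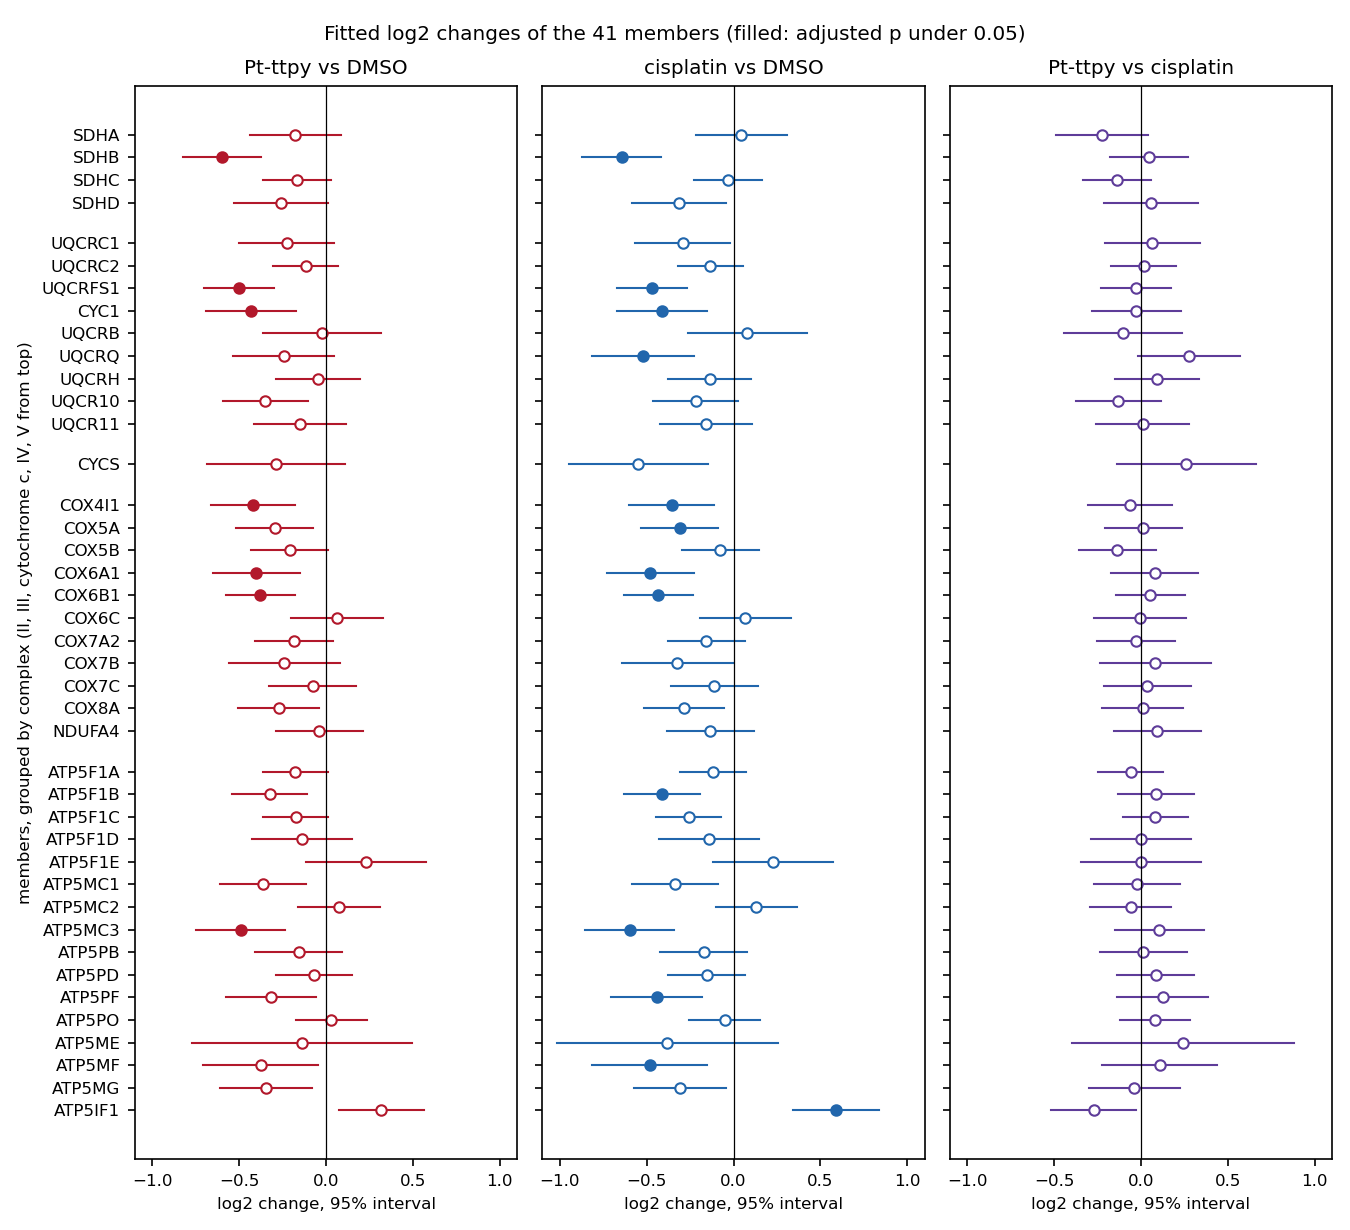
Log2 change (fitted, with 95% interval) of each of the 41 members with Pt-ttpy against DMSO and with cisplatin against DMSO, ordered by complex, with filled symbols for calls at an adjusted p under 0.05. SDHB lies farthest below 0 with both drugs, at -0.60 and -0.64, and ATP5IF1 farthest above 0, at 0.32 and 0.59.

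In complex II, SDHB was the single call of 4 members with either drug. SDHB (ENSG00000117118; chromosome 1, 17018722 to 17054170, GRCh38, GENCODE 29) passes electrons through its iron-sulfur clusters towards ubiquinone. It stood at 80.7, 85.7 and 88.6 CPM in Pt-ttpy 1, 2 and 3, at 80.8, 79.0 and 87.6 CPM in cisplatin 1, 2 and 3, and at 119.9, 143 and 124 CPM in DMSO 1, 2 and 3. All treated libraries lay far below all DMSO libraries, and the drug groups overlapped each other. The log2 change was -0.60 with Pt-ttpy (SE 0.10, adjusted p = 0.00855) and -0.64 with cisplatin (SE 0.10, adjusted p = 0.00264). SDHA encodes the flavoprotein that oxidises succinate. Its level was 161, 179 and 191 CPM with Pt-ttpy, 196, 226 and 198 CPM with cisplatin and 182, 235 and 185 CPM with DMSO, so cisplatin and DMSO overlapped and the Pt-ttpy libraries lay below those of cisplatin. Its log2 changes were -0.18 with Pt-ttpy (adjusted p = 0.351) and 0.05 with cisplatin (0.821), both not called, and between the drugs the change was -0.22 (Pt-ttpy against cisplatin, adjusted p = 0.69). The membrane anchors SDHC (-0.17 with Pt-ttpy, -0.03 with cisplatin) and SDHD (-0.26 and -0.31) were not called either.

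The region before the SDHB start is shown because SDHB is the member with the largest drop and because its promoter holds letters searched for in all members. It covers the 250 bases before the RefSeq start (GRCh38.p14, chr1:17054033-17054282, minus strand, 5′ to 3′). The first capitals are the shorter form of the NRF1 motif on the opposite strand, the long run is a match to a G-quadruplex run on the opposite strand, and the last capitals are an ETS core.
SDHB: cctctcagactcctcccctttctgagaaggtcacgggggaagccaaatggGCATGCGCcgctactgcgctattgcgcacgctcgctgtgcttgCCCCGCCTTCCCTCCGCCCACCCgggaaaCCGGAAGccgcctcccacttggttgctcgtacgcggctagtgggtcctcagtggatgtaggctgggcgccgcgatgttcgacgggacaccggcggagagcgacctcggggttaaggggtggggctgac

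In complex III, UQCRFS1 and CYC1 were lower with both drugs and UQCRQ with cisplatin. UQCRFS1, the Rieske iron-sulfur protein (ENSG00000169021; chromosome 19), was at 146, 142 and 142 CPM in the Pt-ttpy libraries, 148, 142 and 149 CPM in the cisplatin libraries and 202, 219 and 185 CPM in the DMSO libraries. The 6 treated libraries were nearly level, and all were below DMSO. Its log2 change was -0.50 with Pt-ttpy (SE 0.09, adjusted p = 0.011) and -0.47 with cisplatin (SE 0.09, adjusted p = 0.00669). CYC1, cytochrome c1, which receives the electrons from the Rieske protein, was at 221, 243 and 239 CPM with Pt-ttpy, 229, 253 and 232 CPM with cisplatin and 288, 379.8 and 282 CPM with DMSO. Its treated and DMSO libraries did not overlap either, while the drug groups overlapped each other. DMSO 2, a library with the rising GC trend, was the highest. The log2 changes of CYC1 were -0.44 with Pt-ttpy (adjusted p = 0.0358) and -0.41 with cisplatin (adjusted p = 0.0316). Without DMSO 2 the Pt-ttpy change was -0.28 (adjusted p = 0.052), and that call was kept in 12 of 20 other settings.

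UQCRQ, a small supernumerary subunit on chromosome 5, was at 52.4, 45.6 and 40.3 CPM with Pt-ttpy, 44.6, 35.6 and 34.1 CPM with cisplatin and 55.0, 52.7 and 56.1 CPM with DMSO. All treated libraries were below DMSO, and Pt-ttpy 1 came within 1 CPM of DMSO 2. The change was called with cisplatin (-0.52, adjusted p = 0.0197) and not with Pt-ttpy (-0.24, adjusted p = 0.245). UQCRQ shares 306 bp of exon with GDF9 on the opposite strand, and since the strandedness of the counting is not given in the sources used here, such counts may belong to either gene. The core proteins UQCRC1 (-0.23 with Pt-ttpy, -0.29 with cisplatin) and UQCRC2 (-0.12 and -0.13) were not called. UQCR10 was -0.35 with Pt-ttpy (adjusted p = 0.0632) and -0.22 with cisplatin (0.187). The hinge protein gene UQCRH (-0.05 and -0.14), UQCR11 (-0.15 and -0.16) and UQCRB (-0.02 and 0.08) stayed close to 0. The UQCRQ promoter is shown as the 60 bases before the RefSeq start (chr5:132866582-132866641, plus strand), with the ETS core in capitals, which lies 54 to 48 bases before that start.
UQCRQ: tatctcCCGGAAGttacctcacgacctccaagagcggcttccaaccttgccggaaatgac

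CYCS, cytochrome c, is the mobile carrier between complexes III and IV and also a trigger of apoptosis once released from mitochondria. Its level was 237, 232 and 234 CPM with Pt-ttpy, 235, 135 and 216 CPM with cisplatin and 325, 231 and 302 CPM with DMSO. The Pt-ttpy libraries were tight, while the second library was low in both of the other groups, so all groups overlapped. The log2 change of -0.29 with Pt-ttpy (adjusted p = 0.322) and that of -0.55 with cisplatin (adjusted p = 0.053) were not called. With the replicate number as a block, which pairs cisplatin 2 with DMSO 2, CYCS was called with cisplatin, and without DMSO 2 and cisplatin 2 it was called lower with both drugs. GENCODE 29 names 40 pseudogenes of CYCS, more than of any other member, and how reads shared with them were counted is not given in the sources used here.

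In complex IV, 3 of 11 members were lower with Pt-ttpy and 4 with cisplatin, and none was higher. COX6B1, a subunit on the outer side that bridges the monomers of the dimeric enzyme, was at 61.9, 56.8 and 58.9 CPM with Pt-ttpy, 56.5, 57.1 and 57.4 CPM with cisplatin and 77.1, 76.8 and 77.0 CPM with DMSO. The DMSO libraries differed from each other by less than 1 CPM, and every treated library was below them. The changes were -0.38 with Pt-ttpy (SE 0.09, adjusted p = 0.0235) and -0.43 with cisplatin (SE 0.09, adjusted p = 0.00892). COX6A1, the ubiquitous form of subunit 6A, was at 115, 123 and 106 CPM with Pt-ttpy, 109, 117 and 100.3 CPM with cisplatin and 134, 171 and 149.7 CPM with DMSO. Treated and DMSO libraries did not overlap, and DMSO 2 was again the highest. The changes were -0.40 with Pt-ttpy (adjusted p = 0.0418, kept in 11 of 20 other settings) and -0.48 with cisplatin (adjusted p = 0.0146). COX6A1 shares 175 bp of exon with AL021546.1 on the same strand.

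COX4I1, the general form of subunit 4, which takes part in the control of the enzyme by ATP, was at 172, 179 and 175 CPM with Pt-ttpy, 180.2, 198 and 172 CPM with cisplatin and 210.2, 273 and 221 CPM with DMSO. All treated libraries were below DMSO, cisplatin 2 being the closest. The changes were -0.42 with Pt-ttpy (adjusted p = 0.0323) and -0.36 with cisplatin (adjusted p = 0.042), the second lost in 11 of 22 other settings. COX5A was at 110.2, 113 and 102 CPM with Pt-ttpy, 106, 108 and 107 CPM with cisplatin and 123, 148 and 128 CPM with DMSO. Treated and DMSO libraries did not overlap, while the drug groups overlapped each other. Yet the change of -0.31 with cisplatin (adjusted p = 0.0482) was called in only 7 of 22 other settings. That of -0.30 with Pt-ttpy (adjusted p = 0.0746) was not called. The other 7 members were not called with either drug. COX8A (-0.27 with Pt-ttpy and -0.28 with cisplatin) and COX7B (-0.24 and -0.32) were nearest to the called members, and COX6C (0.06 and 0.07) and NDUFA4 (-0.04 and -0.13) were near 0.

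The COX6A1 window (chr12:120438053-120438112, plus strand) and the COX6B1 window (chr19:35648263-35648322, plus strand) are shown because both genes were lower with both drugs and both hold, within the 60 bases before the start, an ETS core on the opposite strand (CTTCCGG as printed). It lies 16 to 10 bases before the RefSeq start in COX6A1 and 12 to 6 bases before it in COX6B1. The first capitals in COX6A1 are a CCAAT box.
COX6A1: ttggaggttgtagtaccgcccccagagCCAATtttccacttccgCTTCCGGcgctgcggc
COX6B1: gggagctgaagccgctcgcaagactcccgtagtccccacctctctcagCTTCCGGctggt

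In complex V, ATP5MC3 was lower with both drugs, ATP5F1B, ATP5PF and ATP5MF were lower with cisplatin, and the inhibitor gene ATP5IF1 was higher with cisplatin, of 16 members. Of the F1 head, ATP5F1B, the beta subunit that holds the catalytic sites, was at 1155, 1239 and 1271 CPM with Pt-ttpy, 1121, 1152 and 1178 CPM with cisplatin and 1433, 1745 and 1415 CPM with DMSO. It was the most abundant member by TPM in all 3 groups, and all treated libraries were below DMSO. The changes were -0.33 with Pt-ttpy (SE 0.10, adjusted p = 0.0533) and -0.41 with cisplatin (SE 0.10, adjusted p = 0.0152), and only the cisplatin change was called. Its partner ATP5F1A, the alpha subunit, was at 862, 891 and 918 CPM with Pt-ttpy, 903, 946 and 934 CPM with cisplatin and 1006, 1078 and 937 CPM with DMSO, and was not called (-0.18, adjusted p = 0.191, and -0.12, adjusted p = 0.354). ATP5F1C (-0.17 with Pt-ttpy, -0.26 with cisplatin), ATP5F1D (-0.14 and -0.14) and ATP5F1E (0.23 and 0.23) were not called.

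The c ring is built from 1 mature protein that 3 genes encode. ATP5MC3 was at 222, 223 and 231 CPM with Pt-ttpy, 221, 180.3 and 226 CPM with cisplatin and 299, 364 and 287 CPM with DMSO. The treated libraries were all below DMSO, and the changes were -0.49 with Pt-ttpy (SE 0.12, adjusted p = 0.0231) and -0.60 with cisplatin (SE 0.12, adjusted p = 0.00662). ATP5MC1 had log2 changes of -0.36 with Pt-ttpy (adjusted p = 0.0574) and -0.34 with cisplatin (adjusted p = 0.054), neither called. ATP5MC2, at 123, 135 and 127 CPM with Pt-ttpy, 128, 148 and 125 CPM with cisplatin and 114, 136 and 116 CPM with DMSO, overlapped between groups, with changes of 0.07 and 0.13. The differences between the 3 genes' changes were not tested.

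Of the peripheral stalk and membrane part, ATP5PF (coupling factor 6) was at 70.0, 70.6 and 62.2 CPM with Pt-ttpy, 72.6, 57.7 and 55.7 CPM with cisplatin and 79.6, 87.6 and 85.5 CPM with DMSO. All treated libraries were lower, and the change was called with cisplatin (-0.44, adjusted p = 0.0244) and not with Pt-ttpy (-0.32, adjusted p = 0.0998). ATP5PF shares 413 bp of exon with GABPA on the opposite strand. ATP5MF was at 45.1, 40.6 and 31.8 CPM with Pt-ttpy, 42.3, 33.0 and 33.7 CPM with cisplatin and 47.2, 56.6 and 48.7 CPM with DMSO, called with cisplatin (-0.48, adjusted p = 0.0424) and not with Pt-ttpy (-0.38, adjusted p = 0.12). That call was lost in 11 of 22 other settings, and without DMSO 2 and cisplatin 2 the change was -0.33 (adjusted p = 0.192). ATP5MF also shares 177 bp of exon with the readthrough gene ATP5MF-PTCD1. ATP5MG (-0.35 with Pt-ttpy and -0.31 with cisplatin), ATP5PB (-0.16 and -0.17), ATP5PD (-0.07 and -0.16), ATP5PO (0.03 and -0.05) and ATP5ME (-0.14 and -0.38), the least abundant member by CPM, were not called.

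ATP5IF1 was the 1 member called higher. Its product holds back the reverse, ATP-splitting action of ATP synthase when the membrane potential fails. Its level was 72.2, 71.3 and 63.3 CPM with Pt-ttpy, 85.3, 91.4 and 72.9 CPM with cisplatin and 57.0, 52.2 and 56.7 CPM with DMSO. The 3 groups did not overlap, cisplatin being the highest. The change was 0.32 with Pt-ttpy (SE 0.11, adjusted p = 0.0834), not called, and 0.59 with cisplatin (SE 0.11, adjusted p = 0.00595), a call kept in all 22 other settings. Between the drugs the change was -0.27 (Pt-ttpy against cisplatin, 95% interval -0.52 to -0.03, adjusted p = 0.551), so the difference was not called.

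The ATP5PF window (chr21:25735055-25735114, minus strand) is shown because ATP5PF holds a YY1 core, the first capitals, and an ETS core in the 60 bases before the RefSeq start used here. ATP5PF has a further RefSeq window (chr21:25734855-25735154), in which the YY1 core lies at -207 to -199 from the start. The printed ATP5PF stretch is set beside the ATP5IF1 window (chr1:28236064-28236123, plus strand), the member that went the other way. The 300-base promoter of ATP5IF1 held none of the searched motifs other than a CCAAT box (ATTGG as printed, on the opposite strand).
ATP5PF: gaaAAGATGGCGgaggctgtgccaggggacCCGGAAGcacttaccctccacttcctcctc
ATP5IF1: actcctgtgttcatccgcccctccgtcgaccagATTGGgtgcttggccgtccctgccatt

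**Figure D3:**
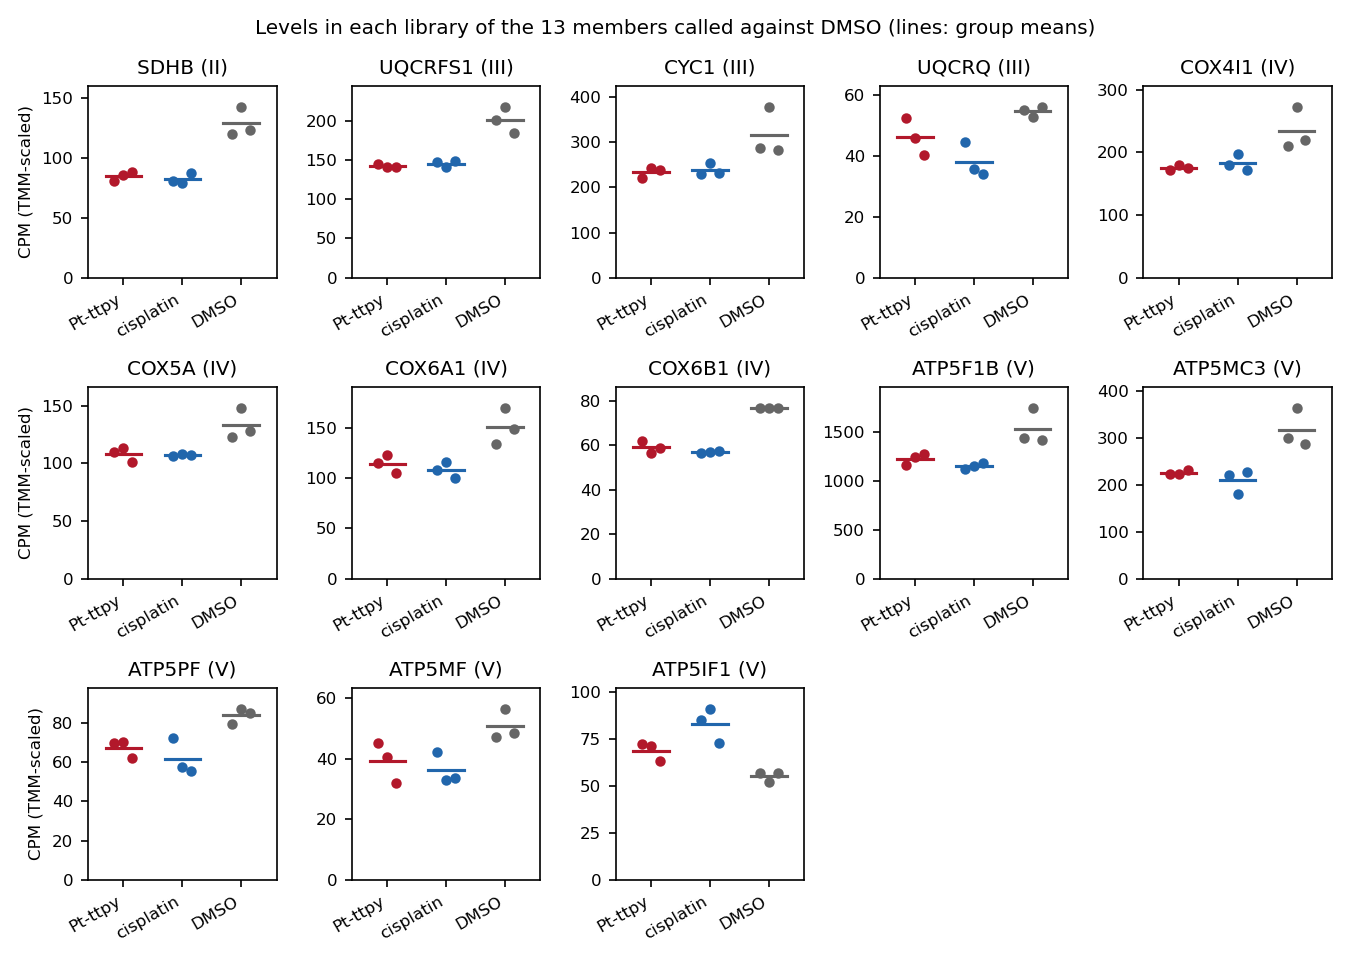
Level (CPM, TMM-scaled, axes from 0) in each library of the 13 members called against DMSO with either drug, with group means as lines. In all but ATP5IF1 the 6 treated libraries lie below the 3 DMSO libraries, and for ATP5IF1 they lie above. The 13 were chosen by these calls, which favours such separation. Of all genes tested, 40.9% had no overlap between Pt-ttpy and DMSO libraries and 38% none between cisplatin and DMSO libraries.

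The direct comparison of Pt-ttpy with cisplatin, at doses that differ in µM and share the IC80 label, called none of the 41 members by edgeR's quasi-likelihood test (lowest adjusted p = 0.551), DESeq2 or limma-voom. Of the 41, only ATP5IF1 had an unadjusted p under 0.05, against 1254 of all 15558 genes. Over all genes 0.514% were called, 0.0578% higher and 0.456% lower. The 95% interval of the difference lay within 0.5 on the log2 scale in either direction for 37 of 41 members, and within 1 for all 41. The bounds reached from -0.52 (ATP5IF1) to 0.88 (ATP5ME). UQCRQ (0.28, adjusted p = 0.648) was the member with the largest positive difference.

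By level per length, the top 3 members stood in the same order in every group, and the lowest 3 were the same genes. ATP5F1B averaged 2230 TPM with Pt-ttpy, 2156 TPM with cisplatin and 2689 TPM with DMSO, COX8A 1110 TPM, 1134 TPM and 1295 TPM in the same groups, and CYC1 503 TPM, 526 TPM and 653 TPM. These stood at places 1, 2 and 3 in every group, and in DMSO none of them overlapped the next in order. From COX6A1 (460 TPM in DMSO) downwards most neighbours overlapped. UQCRB, ATP5F1E and ATP5ME were the lowest 3 in every group, between 28.6 and 36.1 TPM, in an order that differed between groups. SDHB was at place 23 with Pt-ttpy and cisplatin, against place 16 with DMSO, and ATP5IF1 at places 28 and 21, against place 32 with DMSO. Exon lengths merge all annotated transcripts, so genes with long rare exons come out low.

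Promoters were read for letters that are known in respiratory genes. NRF1 and the ETS factor GABPA are activators of many nuclear respiratory genes, and YY1 binds several promoters of complex IV genes. Windows from 250 bases before to 50 after the start were held in RefSeq (GRCh38.p14) for 32 of the 41 members, and each motif was searched on both strands, a gene with several windows counting once. The ETS core CCGGAAG stood in 15 of 32 members (46.9%), against 21.5% of the 10698 tested genes with a window and 12.2% of all 27305 genes of the table. Among the 8 members with a window that were lower with a drug it stood in 6 (SDHB, UQCRQ, COX4I1, COX6A1, COX6B1 and ATP5PF), and among the other 24 in 9. The shorter NRF1 form GCGCATGC stood in 9 members (28.1%), against 6.21% of tested genes. The longer NRF1 core, which contains the shorter form, stood in 2 members, SDHD and ATP5F1C (6.25%), against 2.61% of tested genes.

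The YY1 core AAGATGGCG, which can share its AAG with an ETS core, stood in SDHB, UQCRC1 and ATP5PF (9.38%), against 4.49% of tested genes, and CCAAT in 14 members (43.8%), against 43.1%. A G-quadruplex run, meaning 4 runs of at least 3 G with loops of 1 to 7 bases on either strand, was of interest because Pt-ttpy binds such folds. It stood in 5 members (15.6%), SDHB, UQCR11, COX5B, ATP5F1A and ATP5PD, against 41.9% of tested genes. Of these 5 only SDHB was called with Pt-ttpy, while UQCR11 (-0.15), COX5B (-0.21), ATP5F1A (-0.18) and ATP5PD (-0.07) were not. A match describes the letters in the window and not binding.

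**Figure D4:**
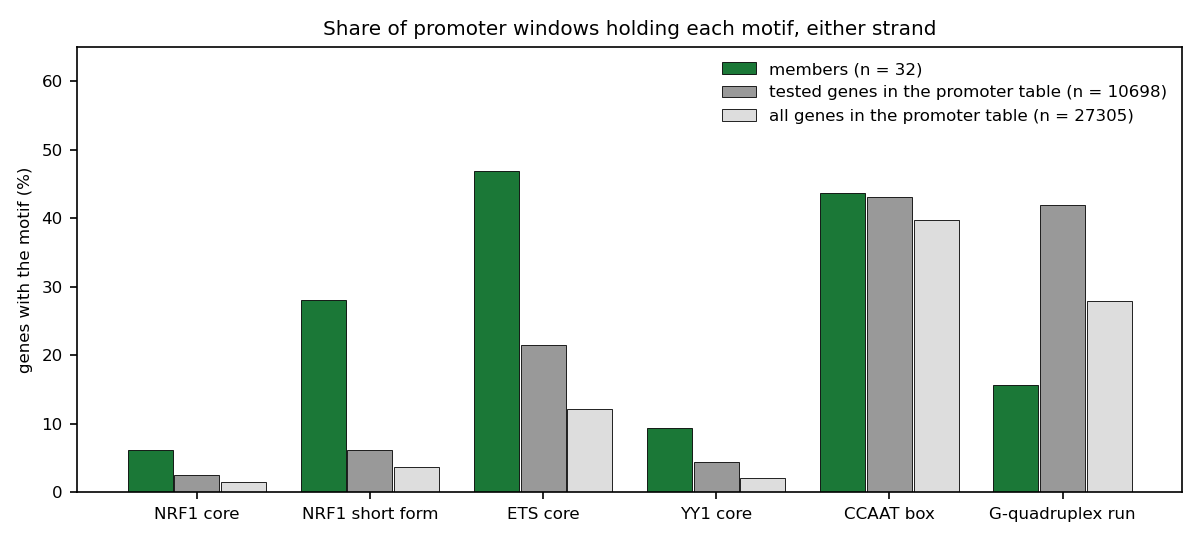
Share (%) of promoter windows that hold each motif on either strand, for the 32 members with a window, the 10698 tested genes and all 27305 genes of the promoter table. The members' bars are above the others for the ETS core (46.9%) and the shorter NRF1 form (28.1%), and below them for the G-quadruplex run (15.6%).

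Of the partners encoded in mitochondrial DNA none was called with either drug. The 6 genes (MT-CYB of complex III, MT-CO1, MT-CO2 and MT-CO3 of complex IV, MT-ATP6 and MT-ATP8 of complex V) had median log2 changes of 0.60 with Pt-ttpy and 0.27 with cisplatin, and 0 of them had an unadjusted p under 0.05 or were called by DESeq2 or limma-voom. In 4 of the 6 every Pt-ttpy library lay above every DMSO library, where 40.9% of all genes had no overlap in either direction. With cisplatin all 6 overlapped with DMSO, where 38% of all genes had no overlap. MT-CO1, the catalytic subunit of complex IV, was at 10067, 4489 and 5048 CPM with Pt-ttpy, 9977, 2714 and 4900 CPM with cisplatin and 3896, 4054 and 4267 CPM with DMSO. Pt-ttpy 1 and cisplatin 1 were high and cisplatin 2 was low. The changes of MT-CO1 were 0.68 with Pt-ttpy (adjusted p = 0.397) and 0.53 with cisplatin (adjusted p = 0.491). MT-ATP6, the channel subunit of ATP synthase, had the same libraries high and low, with 3966, 1744 and 1837 CPM with Pt-ttpy, 4023, 358 and 1865 CPM with cisplatin and 1505, 1428 and 1450.3 CPM with DMSO. Its changes were 0.78 (adjusted p = 0.554) and 0.51 (adjusted p = 0.686).

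Of 48 assembly factors of complexes II to V, 3 were lower with Pt-ttpy and 5 lower and 2 higher with cisplatin, shares of lower calls (6.25% and 10.4%) near those of all genes. Without DMSO 2 and cisplatin 2 13 of the 48 were lower and 3 higher with Pt-ttpy (17.4% and 15.8% of all genes), and 12 were lower and 3 higher with cisplatin (16.4% and 13.9% of all genes). BCS1L, which inserts the Rieske protein UQCRFS1 into complex III, was lower with both drugs. Its level was 15.5, 15.6 and 19.4 CPM with Pt-ttpy, 15.9, 11.2 and 17.2 CPM with cisplatin and 24.5, 35.2 and 27.1 CPM with DMSO, with no overlap of treated and DMSO libraries. The changes were -0.78 with Pt-ttpy (adjusted p = 0.0243) and -0.97 with cisplatin (adjusted p = 0.00663). COX10, which makes the heme of complex IV (-0.49, adjusted p = 0.0208, and -0.50, adjusted p = 0.0119), and TACO1, an activator of MT-CO1 translation (-0.60, adjusted p = 0.0172, and -0.48, adjusted p = 0.0231), were lower with Pt-ttpy and cisplatin as well. COA3 was lower with cisplatin (-0.58, adjusted p = 0.0205), and SDHAF4, an assembly factor of complex II (0.92, adjusted p = 0.0374), and COX15, of heme synthesis (0.42, adjusted p = 0.0373), were higher. BCS1L kept its cisplatin call in all 22 other settings, COX10 in 21, TACO1 in 20, COA3 in 19, COX15 in 14 and SDHAF4 in 12. With Pt-ttpy the calls of BCS1L, COX10 and TACO1 were lost without Pt-ttpy 1, 2 or 3, where 0.427%, 0.264% and 0.545% of all genes were lower. The BCS1L call was also lost without DMSO 2 (3.89% of all genes lower).

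Of 37 nuclear complex I subunits 5 were lower with Pt-ttpy (13.5%, against 6.45% of all genes) and 7 with cisplatin (18.9%, against 9.78%), with medians of -0.19 and -0.19, close to the -0.21 and -0.26 of complexes II to V, and without DMSO 2 and cisplatin 2 they were 13 and 12, against 17.4% and 16.4% of all genes. NDUFC2 (-0.38 with Pt-ttpy, adjusted p = 0.0444, and -0.59 with cisplatin, adjusted p = 0.00591), NDUFA6 (-0.51, adjusted p = 0.0199, and -0.57, adjusted p = 0.00731), NDUFA9 (-0.39, adjusted p = 0.031, and -0.45, adjusted p = 0.0115) and NDUFS6 (-0.53, adjusted p = 0.0278, and -0.59, adjusted p = 0.0122) had the lowest adjusted p. With cisplatin these calls were kept in 21 or 22 of 22 other settings, and with Pt-ttpy all 4 were lost without Pt-ttpy 1, 2 or 3. In those 3 fits lower calls over all genes were also few, at 0.427%, 0.264% and 0.545%.

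Of 14 further subunits and tissue forms 7 passed the filter. DMAC2L, known as factor B of ATP synthase, was higher with both drugs (0.45 with each, adjusted p = 0.037 with Pt-ttpy and 0.026 with cisplatin). COX6B2, the testis form of subunit 6B, was higher with cisplatin (1.30, adjusted p = 0.0474), at no more than 2.13 CPM, a call kept in 9 of 22 other settings. Of the 7 tested, 1 was thus higher with Pt-ttpy and 2 with cisplatin, against 5.59% and 10.7% of all genes. The DMAC2L call was kept in 14 of 20 other settings with Pt-ttpy and in 19 of 22 with cisplatin. With Pt-ttpy it was lost without DMSO 2, DMSO 3, cisplatin 3 or any of the Pt-ttpy libraries. Without Pt-ttpy 1, 2 or 3 only 1.25%, 0.899% and 1.33% of all genes were higher. Of 10 regulators of mitochondrial biogenesis, 9 were tested and none was called with Pt-ttpy by edgeR or limma-voom. By DESeq2 2 were lower (10.9% of all genes), and without DMSO 2 and cisplatin 2 7 were (17.4% of all genes). By unadjusted p under 0.05 4 were lower, where 4637 of all 15558 genes had such a p in either direction. Of the regulators, ESRRA (-0.38, adjusted p = 0.0505) and PPARGC1B (-0.61, adjusted p = 0.0552) came nearest. With cisplatin NRF1 (-0.38, adjusted p = 0.0408), ESRRA (-0.42, adjusted p = 0.0266) and the coactivator PPARGC1B (-0.60, adjusted p = 0.0441) were lower, calls kept in 9, 16 and 10 of 22 other settings. These were 3 of the 9 tested, where 9.78% of all genes were lower. GABPA (0.03 and -0.13), GABPB1 (-0.17 and -0.32), YY1 (0.05 and 0.03), TFAM (-0.11 and -0.12), PPRC1 (-0.35 and -0.32) and CHCHD2 (-0.31 and -0.32) were not called with Pt-ttpy or cisplatin, and PPARGC1A did not pass the filter. Whether these regulators' transcripts bear on the members' levels was not tested.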

How the data were processed

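Libraries were made from 1.3 µg of total RNA with an mRNA kit, per the labels. The authors deposited 1 table of raw counts per gene for 9 libraries, 3 per group, every count column of which belongs to a sample. The build was GRCh38, per the submitters' processing notes, and how reads were aligned, counted and assigned to strands is not given in the sources used here. The labels' "Cispt" was taken to mean cisplatin.

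Differences were fitted in edgeR 4.0.16 under R 4.3.3 (filterByExpr with minimum count 10, TMM factors, robust quasi-likelihood fit, 1 mean per group over 9 libraries). P-values were Benjamini-Hochberg adjusted over 15558 genes and called under 0.05. Intervals are 95% intervals of the fitted change. TPM used union exon lengths from GENCODE 29. The procedure was tested on simulated counts with changes planted in the Pt-ttpy group. Those counts held no GC trend and no pairing of libraries, so that test does not bear on these limits. Precision rests on 31.3 to 40.8 M counts per library, and on 3 libraries per group.

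The members and lists were chosen with earlier results of these data known. Values per library are given for members called in any comparison and for the lowest p in each complex against DMSO. Outside this rule they are also given for SDHA, which was called in no comparison. The same holds for ATP5F1A and ATP5MC2, chosen after their values were seen as partners of called members. Other members are given by their change. From each partner list up to 4 called genes with the lowest adjusted p are named, besides all mitochondrial DNA partners and regulators, and SDHAF4 and COX15, named after their values were seen as the 2 assembly factors called higher. Other settings were DESeq2 1.42.0 (size factors and Wald test), limma 3.58.1 voom, upper-quartile factors, library totals, no filter and no robust estimation. Further ones were the 6 libraries of a comparison, the replicate number as a block, each library left out, and 7 libraries without DMSO 2 and cisplatin 2. The GC correction, alone and with the block, was added after the GC trend was seen. The block over the 6 cisplatin and DMSO libraries alone was not planned beforehand either. Deviations of same-numbered cisplatin and DMSO libraries from their group means correlated at 0.196, 0.351 and 0.18. Those of unlike number correlated at 0.13 between numbers 1 and 3, and at -0.25 to -0.229 where 1 of the libraries was number 2. Whether the numbers pair cisplatin with DMSO libraries is therefore not settled. Same-numbered libraries correlated at -0.042 to 0.02 between Pt-ttpy and DMSO and 0.011 to 0.085 between Pt-ttpy and cisplatin. No libraries were duplicates of each other. Of the members, 14 share at least 100 bp of exon with another coding gene and 29 have named pseudogenes in GENCODE 29.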

Additional observations from a re-analysis of the deposited data

How the results depend on the processing

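No member called in the reported fits changed sign in any setting run. In the comparison of Pt-ttpy with DMSO, 7 members were called lower and 0 higher. The lower count, with the share of all genes lower in the same fit (6.45% as reported), was 4 with upper-quartile factors (4.28%) and 4 with library totals (4.97%), 12 with DESeq2's Wald test (10.9%), 17 (with 2 higher) without DMSO 2 and cisplatin 2 (17.4%), and 16 (with 1 higher, ATP5IF1) with the GC correction, chosen after seeing the data (14.3%). With 1 library left out the lower count ranged from 0 to 10 (0.264% to 10.1% of all genes) and the higher count from 0 to 1, the 1 being ATP5IF1 without cisplatin 2. SDHB kept its call in 18 of 20 settings. The median change of -0.21 was -0.14 with upper-quartile factors and -0.14 with library totals, under which the median over all genes moved to 0.10 and 0.10, from 0.03.

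In the comparison of cisplatin with DMSO, 12 were lower and 1 higher. Against 9.78% of all genes lower as reported, the lower count was 7 with upper-quartile factors (5.87%), 3 with the 6 libraries of the comparison alone (SDHB, UQCRFS1 and ATP5MC3; 2.6%), 19 without DMSO 2 and cisplatin 2 (16.4%), 19 with the GC correction (19.2%) and 21 with the GC correction and replicate block (20.3%). With 1 library left out it ranged from 6 to 12 (5.81% to 8.8% of all genes). The median of -0.26 was -0.18 with upper-quartile factors, -0.17 with library totals and -0.19 without DMSO 2 and cisplatin 2. SDHB, UQCRFS1, ATP5MC3 and ATP5IF1 kept their calls in all 22 settings.

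With the replicate number as a block, 13 members were lower with cisplatin (CYCS added; 11.6% of all genes) and 1 higher. With the block over the 6 libraries alone, a setting not planned beforehand, 13 were lower (8.8% of all genes). The block gave 9 lower with Pt-ttpy against DMSO (8.06% of all genes) and 0 calls between the drugs. Same-numbered libraries correlated little in these 2 comparisons. No setting called a member between Pt-ttpy and cisplatin, and no complex sum changed its direction against DMSO with TMM-scaled CPM in place of TPM or with 1 library left out. The log2 ratio of sums, Pt-ttpy over cisplatin, was -0.015 in TPM and 0.018 in CPM for complex III, and -0.027 and 0.0096 for complex IV. The causes of these shifts were not tested. Precision between the drugs is limited to the 95% intervals given, from 3 libraries per group.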
